A study of Rattus norvegicus with 6 samples.

Results

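The 9 genes described here encode enzymes that break down tryptophan, phenylalanine and tyrosine in liver. They were taken as the rows of the deposited table whose symbol is Tdo2, Afmid, Kmo, Kynu, Haao, Tat, Hpd, Hgd or Fah. Each symbol had 1 row, so 9 of the table's 25926 features are members. The rule used no measured value, but the members were chosen with earlier results of these data known. The samples are livers of 3 control rats and 3 TPN rats. The controls received 0.9% saline, and the others were fed into a vein by total parenteral nutrition (TPN) for 7 days. All 6 were Sprague-Dawley rats labelled 4 weeks old, and the TPN rats carry the disease label PNALD, parenteral nutrition-associated liver disease. The labels name no genotype or sex, and do not say whether the controls carried a catheter or what they ate.

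Liver degrades most of the body's tryptophan through the kynurenine pathway. Tdo2 opens the indole ring, Afmid releases kynurenine, Kmo hydroxylates it, Kynu cleaves the product and Haao makes the precursor of quinolinic acid, from which NAD can be built. Phenylalanine is degraded by way of tyrosine, from which Tat removes the amino group, Hpd forms homogentisate, Hgd opens its ring and Fah splits the final intermediate to fumarate and acetoacetate. Tat and Tdo2 are textbook examples of liver genes induced by glucocorticoids, and inherited loss of Hpd, Hgd or Fah causes tyrosinaemia or alkaptonuria.

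The sequence before the start of 4 of these genes is shown because these genes lie at the ends of the range of changes: Kynu, Hpd and Kmo lay lower in every TPN rat than in every control rat, and Tat had the only positive change. The sequences are RefSeq's, of the build GRCr8, and hold the 250 bases before the annotated start. Capitals mark letters that match one of 10 motifs searched on both strands.
Kynu promoter (GRCr8, chr3:48188036-48188285, plus strand): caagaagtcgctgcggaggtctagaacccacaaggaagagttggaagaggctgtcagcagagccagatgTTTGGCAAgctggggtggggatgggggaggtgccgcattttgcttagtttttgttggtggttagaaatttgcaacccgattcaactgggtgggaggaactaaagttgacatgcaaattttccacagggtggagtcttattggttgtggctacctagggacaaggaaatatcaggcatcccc
Hpd promoter (GRCr8, chr12:39041996-39042245, plus strand): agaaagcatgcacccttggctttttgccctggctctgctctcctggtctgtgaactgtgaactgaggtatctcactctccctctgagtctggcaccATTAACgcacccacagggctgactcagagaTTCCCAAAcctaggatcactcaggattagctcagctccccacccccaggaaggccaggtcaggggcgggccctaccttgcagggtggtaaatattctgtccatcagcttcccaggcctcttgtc
Kmo promoter (GRCr8, chr13:90089271-90089520, plus strand): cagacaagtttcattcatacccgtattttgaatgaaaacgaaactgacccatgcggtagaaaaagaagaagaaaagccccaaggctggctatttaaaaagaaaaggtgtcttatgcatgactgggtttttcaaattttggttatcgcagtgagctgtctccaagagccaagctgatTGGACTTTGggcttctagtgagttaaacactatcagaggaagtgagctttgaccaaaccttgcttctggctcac
Tat promoter (GRCr8, chr19:54856354-54856603, plus strand): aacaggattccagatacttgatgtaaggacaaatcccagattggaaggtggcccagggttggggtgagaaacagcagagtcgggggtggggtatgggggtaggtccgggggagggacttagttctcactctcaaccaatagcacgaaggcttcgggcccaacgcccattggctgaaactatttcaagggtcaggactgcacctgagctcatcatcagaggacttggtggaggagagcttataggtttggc

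In the Kynu promoter the capitals mark the C/EBP letters TTNNGNAA, which also occur in the Hpd and Hgd promoters and in 37.2% of the 33469 rat promoters in the table. Hpd holds in addition the short HNF1 site GTTAAT, found in 6.45% of promoters, on the minus strand. Kmo holds the HNF4 letters CAAAGTCCA on the minus strand, found in 0.338% of promoters. Tat holds none of the 10 motifs in this window. The other motifs were the short glucocorticoid receptor site TGTTCT (17.5% of promoters, Haao among them), the full glucocorticoid receptor site (0.012%), the full HNF1 site (0.00299%), the cAMP letters TGACGTCA (1.59%) and their first part TGACG (18.2%), GCGTG (25.9%, Fah among them) and TATAAA (12.9%, Tdo2 among them). TGACG lies inside TGACGTCA, GTTAAT inside the full HNF1 site and TGTTCT inside the full glucocorticoid site. A match describes letters in this window and is no evidence of binding.

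Pearson correlations of log2(FPKM + 1) between rats, over the features tested, lay between 0.961 and 0.981 among controls, 0.942 and 0.968 among TPN rats and 0.92 and 0.961 across groups. TPN 1 and control 2 stood apart in acute-phase genes. The acute-phase gene Lcn2 measured 9127 FPKM in TPN 1 and 112 in control 2, beside 3.68 and 7.29 in the other controls and 172 and 77.2 in the other TPN rats. Results are therefore also given without these 2 rats.

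In TPN liver 8 of the 9 genes had a negative log2 fold change, beside 49.1% of all features, and 4 of them, Kynu, Hpd, Kmo and Fah, showed no overlap between the groups, all lower. Tat had the only positive change. In whole liver, fewer cells of a type and less RNA per cell cannot be told apart. The median log2 fold change of the 9 genes was -0.67, beside 0.0065 over the 11362 features tested. None of the 9 passed the threshold, a Benjamini-Hochberg adjusted p under 0.05 in limma over all features tested, which 0.246% of all features passed. At an unadjusted p under 0.05, 5 were lower (Kynu, Hpd, Kmo, Fah and Hgd) and none higher, beside 7.01% of all features lower and 4.44% higher. Lower values without overlap were found for 9.09% of all features. Because the members were chosen with earlier results of these data known, their counts are a description and no independent support. The count of 5 was 2 without control 1 or control 3 (Hpd and Kynu each time) and 2 without TPN 2 (Kmo and Kynu). Without TPN 1, only Hpd, Kmo and Kynu were lower at that p, and Tat was higher. All values are FPKM, a level scaled to transcript length and library total, and fold changes are on the log2(FPKM + 1) scale.

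Levels in FPKM, which are per length and so can be set side by side, differed about 20.2-fold between the most and the least abundant of the 9 genes. Over the 6 rats the order of mean FPKM was Hpd (479), Tdo2 (423), Tat (249), Fah (142), Hgd (104), Haao (97.9), Kynu (68.8), Kmo (33.4) and Afmid (23.7). The ranges over rats of neighbours in this order overlapped for each of the 8 neighbouring pairs.

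**Figure D1:**
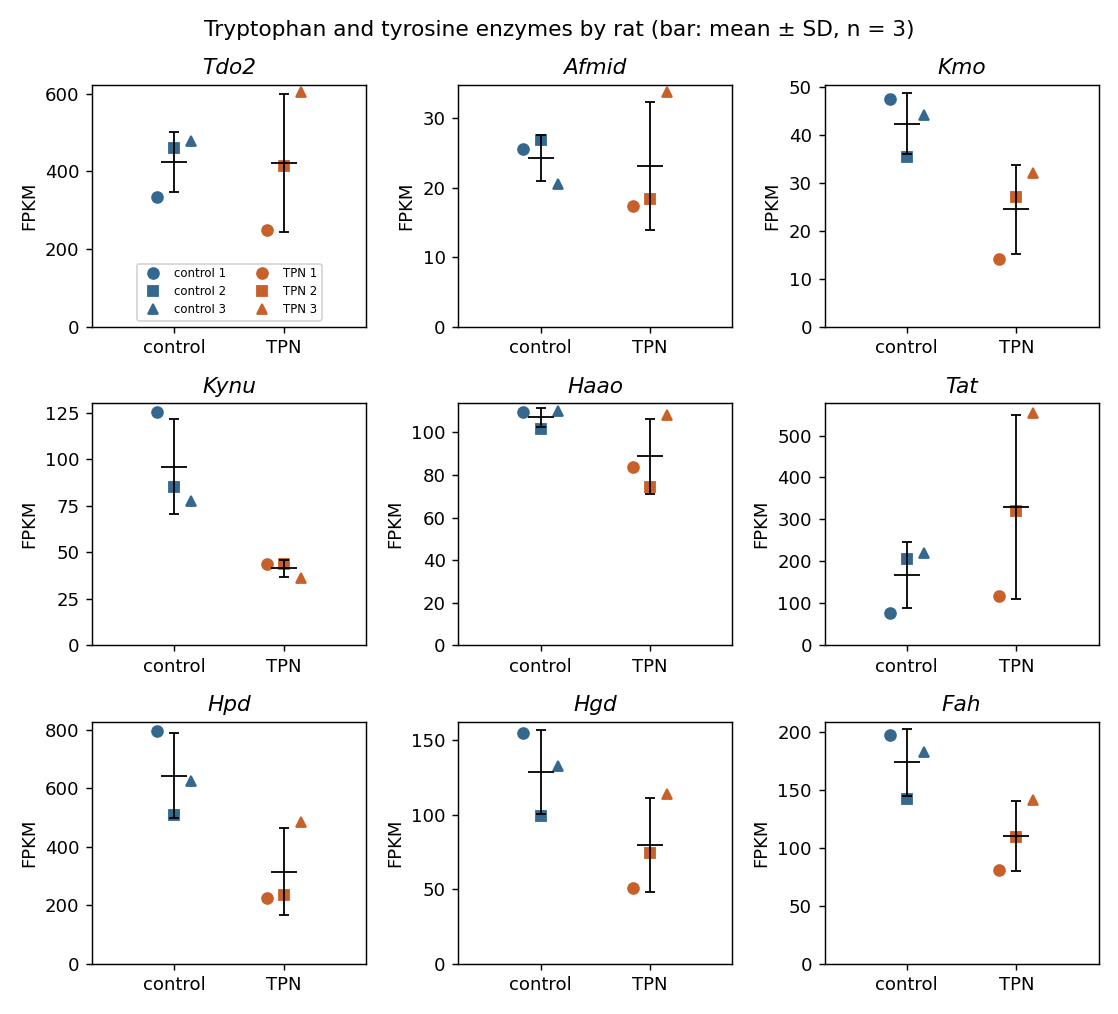
FPKM of the 9 genes in each rat, with control in blue and TPN in orange, 1 symbol shape per replicate number, and bars for the mean ± SD (n = 3). The TPN values of Kynu lie between 36.3 and 43.9 FPKM, below all controls, while those of Tat run from 116 to 553.

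In the tryptophan branch, Tdo2, the first and rate-limiting enzyme, measured 335, 459 and 477 FPKM in control 1, 2 and 3 and 249, 414 and 604 FPKM in TPN 1, 2 and 3. The TPN rats held both the lowest and the highest value of the 6. The means were 424 ± 77.4 and 422 ± 178 FPKM (SD, n = 3), with a log2 fold change of -0.079 (SE of 0.34, limma adjusted p = 0.961). The 95% interval of that change ran from -0.87 to 0.71, and so held changes of either sign.

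Afmid, the formamidase of the next step, measured 25.5, 26.8 and 20.6 FPKM in the controls and 17.3, 18.4 and 33.8 FPKM in the TPN rats. TPN 1 and TPN 2 lay below the controls and TPN 3 above them. Its log2 fold change was -0.12 (SE of 0.27, limma adjusted p = 0.910). The sign of this change turned positive without TPN 1 or TPN 2, and that of Tdo2 without TPN 1 or control 3.

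Kmo, the kynurenine monooxygenase of the outer mitochondrial membrane, measured 47.5, 35.3 and 44.2 FPKM in the controls and 14.2, 27.0 and 32.1 FPKM in the TPN rats. Every TPN rat lay below every control, TPN 1 furthest and TPN 3 close to control 2. The mean was 1.73-fold lower in TPN, with a log2 fold change of -0.83 (SE of 0.30, limma unadjusted p = 0.0239, adjusted p = 0.361). Without TPN 1 it was -0.50 (limma adjusted p = 0.357).

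Kynu, the kynureninase, showed the clearest separation. It measured 126, 85.1 and 77.8 FPKM in the controls and 43.93, 43.93 and 36.3 FPKM in the TPN rats. The highest TPN value was well below the lowest control value, and the spread within TPN was small, with a ratio of highest to lowest of 1.21 against 1.62 in control. The mean was 2.32-fold lower in TPN, at 96.2 ± 25.8 and 41.4 ± 4.42 FPKM (SD, n = 3). The log2 fold change was -1.17 (SE 0.22, 95% interval -1.69 to -0.65, limma unadjusted p = 0.000838, adjusted p = 0.115). Its unadjusted p stayed under 0.05 in each of the 17 other fits, and its adjusted p passed in 1 of them, with sample weights (limma adjusted p = 0.0437). Over those 17 fits its adjusted p ran from 0.0437 to 0.375.

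Haao, the dioxygenase that follows, measured 109, 102 and 110 FPKM in the controls and 83.6, 74.3 and 108 FPKM in the TPN rats. TPN 1 and TPN 2 were below the controls and TPN 3 among them. The log2 fold change was -0.29 (SE of 0.20, limma adjusted p = 0.630), and it was -0.17 without TPN 2 and -0.44 without TPN 3. In this branch the middle steps Kmo and Kynu separated the groups, and Tdo2, Afmid and Haao did not. The difference between these changes was not tested.

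In the tyrosine branch, Tat, the aminotransferase that starts it, varied most among the 9 genes in both groups. It measured 76.6, 206 and 221 FPKM in the controls and 116, 320 and 553 FPKM in the TPN rats. TPN 1 lay between control 1 and control 2, and TPN 2 and TPN 3 lay above all controls. The ratio of highest to lowest was 2.88 in control and 4.76 in TPN. The means were 168 ± 79.3 and 330 ± 218 FPKM (SD, n = 3), with a log2 fold change of 0.85 (SE 0.65, 95% interval -0.70 to 2.39, limma adjusted p = 0.676). With 1 rat left out, the log2 fold change was 0.36 (control 1), 0.35 (TPN 3) or 1.47 (TPN 1). The limma adjusted p was 0.999, 0.843 and 0.330, so the size of the change rested on single rats. The limma unadjusted p was 0.233 with all rats. Over the 17 other fits it ran from 0.015 to 0.602 and was under 0.05 in 3.

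Hpd, the dioxygenase that follows Tat, had a change of the opposite sign, and the difference between these changes was not tested. It measured 796, 508 and 627 FPKM in the controls and 224, 234 and 486 FPKM in the TPN rats. TPN 1 and TPN 2 lay far below all controls, and TPN 3 lay just under control 2. The mean was 2.05-fold lower in TPN, at 644 ± 145 and 315 ± 148 FPKM (SD, n = 3). The log2 fold change was -1.10 (SE of 0.35, limma unadjusted p = 0.0131, adjusted p = 0.310). Its adjusted p passed in 1 of the 17 other fits, with sample weights (limma adjusted p = 0.036), and ran from 0.036 to 0.911 over them.

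Hgd, which opens the ring of homogentisate, measured 155, 99.0 and 133 FPKM in the controls and 50.8, 74.4 and 114 FPKM in the TPN rats. TPN 3 lay above control 2, so the groups overlapped. The log2 fold change was -0.74 (SE of 0.31, limma unadjusted p = 0.0475, adjusted p = 0.431). Without TPN 1 it was -0.46 (limma unadjusted p = 0.133, adjusted p = 0.514). Fah, the last enzyme, measured 197, 141.6 and 182 FPKM in the controls and 80.8, 109 and 141.1 FPKM in the TPN rats. Its groups were apart only by the small gap between control 2 and TPN 3. The log2 fold change was -0.67 (SE of 0.25, limma unadjusted p = 0.03, adjusted p = 0.380).

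The rats differed from each other across most of the pathway. TPN 1 was the lowest TPN rat for 7 of the 9 genes and lay below the mean of the 6 rats for all 9. TPN 3 was the highest TPN rat for 8 of the 9, Kynu being the exception. Among the controls, control 2 was lowest for 5 genes (Kmo, Haao, Hpd, Hgd and Fah), and control 1 was highest for 5 (Kmo, Kynu, Hpd, Hgd and Fah) and lowest for Tdo2 and Tat. Without control 2 and TPN 1 together, the log2 fold changes were -1.29 for Kynu, -1.07 for Hpd, -0.62 for Kmo, -0.63 for Hgd, -0.61 for Fah and 1.68 for Tat, with limma adjusted p from 0.109 to 0.307.

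**Figure D2:**
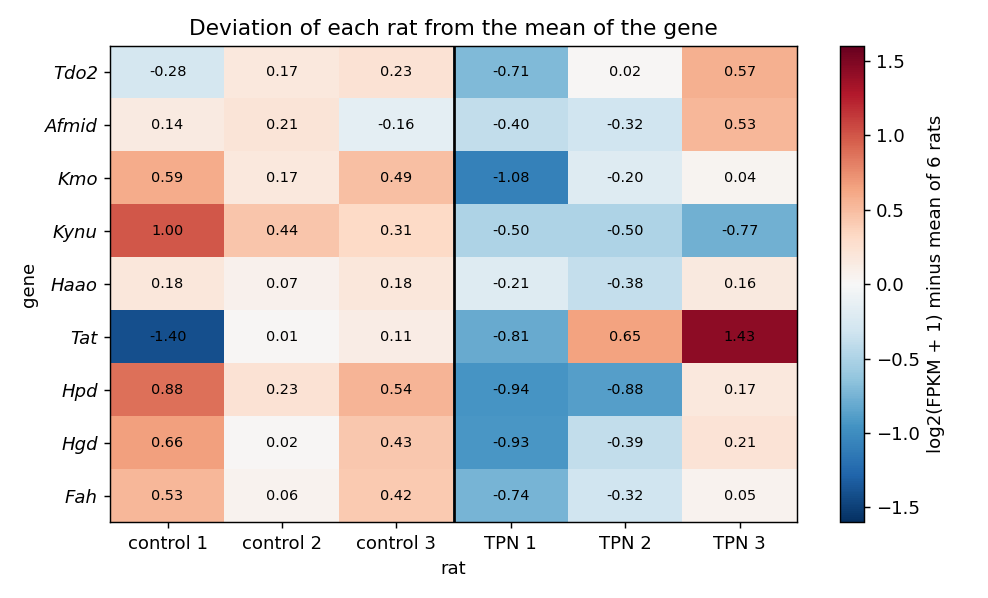
Deviation of each rat (columns) from the mean of the 6 rats for each gene (rows), as log2(FPKM + 1), with red above and blue below the mean. TPN 1 is negative for all 9 genes, while TPN 3 is positive for 8 and negative for Kynu (-0.77).

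Ratios of 2 genes within a rat do not depend on the scaling of its library. The pairs were chosen after the values of the genes were seen, so they are given as a description. FPKM of Hpd over FPKM of Tat was 10.4, 2.46 and 2.84 in the controls and 1.93, 0.731 and 0.879 in the TPN rats. Every TPN rat thus carried less Hpd per Tat than every control, and control 1, with its low Tat, stood far above the rest. Hgd over Tat was 2.02, 0.481 and 0.600 in the controls and 0.438, 0.233 and 0.206 in the TPN rats, again without overlap. Fah over Tat was 2.57, 0.688 and 0.825 in the controls and 0.695, 0.340 and 0.255 in the TPN rats, where TPN 1 just exceeded control 2. Of all other features, 4.72% had a ratio to Tat that was lower in every TPN rat than in every control.

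Kmo over Tdo2 was 0.142, 0.0769 and 0.0926 in the controls and 0.057, 0.0653 and 0.0531 in the TPN rats, without overlap. Kynu over Tdo2 was 0.375, 0.185 and 0.163 in the controls and 0.176, 0.106 and 0.060 in the TPN rats, where TPN 1 lay above control 3. Afmid over Tdo2 and Haao over Tdo2 overlapped widely, with mean ratios of 0.0592 and 0.0566, and of 0.26 and 0.232, in control and TPN. Lower ratios to Tdo2 without overlap were found for 2.51% of other features. Among the later tyrosine enzymes Fah over Hgd stayed between 1.24 and 1.59 in all 6 rats, and Hgd over Hpd was 0.2 ± 0.00962 in control and 0.26 ± 0.0509 in TPN (SD, n = 3), higher in every TPN rat than in every control, as was the ratio to Hpd of 65.6% of other features.

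**Figure D3:**
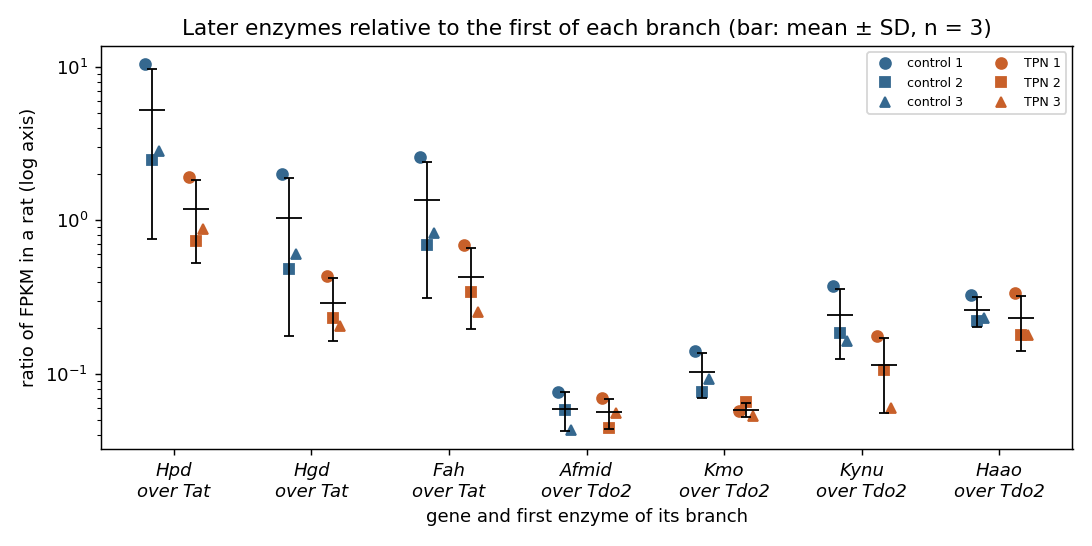
Ratio of the FPKM of each later enzyme to that of the first enzyme of its branch in each rat, on a log axis, with control in blue, TPN in orange and bars for the mean ± SD (n = 3). Hpd over Tat, Hgd over Tat and Kmo over Tdo2 are lower in every TPN rat than in every control.

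Among 6 lists of other genes of these pathways, their transport and their regulation, 66 genes were listed and 59 tested. None passed limma's test at an adjusted p under 0.05, and 12 had an unadjusted p under 0.05, beside 11.4% of all features. In the list of tryptophan side branches and NAD synthesis, 12 of 17 were negative, 2 of them and 1 positive gene with an unadjusted p under 0.05. Ddc, the aromatic amino acid decarboxylase, measured 15.4, 6.94 and 15.5 FPKM in the controls and 1.66, 1.58 and 5.95 in the TPN rats (limma adjusted p = 0.231). Dhtkd1, of the mitochondrial breakdown of lysine and tryptophan, measured 79.0 ± 15.3 FPKM over the controls and 37.9 ± 13.9 over the TPN rats (SD, n = 3, limma adjusted p = 0.234). Both were lower without overlap. Nampt, which salvages nicotinamide for NAD, measured 34.6, 82.8 and 45.3 FPKM in the controls and 70.0, 141 and 145 in the TPN rats (limma adjusted p = 0.353), and passed without control 2 and TPN 1 together (log2 fold change 1.83, limma adjusted p = 0.0267).

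The most abundant genes of that list, Aldh8a1 and Gcdh, measured 174 ± 26.2 and 113 ± 22.7 FPKM in control and 135 ± 34.0 and 111 ± 53.3 in TPN (SD, n = 3). Qprt, which commits quinolinic acid to NAD, was named after its values were seen, at 58.0 ± 6.56 FPKM over the controls and 52.4 ± 5.86 over the TPN rats (limma adjusted p = 0.822). Of the indoleamine dioxygenases, which open the indole ring as Tdo2 does, Ido1 is listed at 0 in all 6 rats. Ido2 measured 5.33, 6.52 and 5.32 FPKM in the controls and 4.78, 1.29 and 6.06 in the TPN rats (limma adjusted p = 0.645), far below Tdo2, and both were named after their values were seen.

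Of 7 genes that make, recycle or regulate the cofactor tetrahydrobiopterin, or assist the enzymes that use it, 6 were negative and 1 had an unadjusted p under 0.05. Gchfr, which regulates synthesis of the cofactor, measured 38.9, 35.3 and 40.4 FPKM in the controls and 17.9, 20.8 and 32.2 in the TPN rats, lower without overlap (limma adjusted p = 0.324). The most abundant of the list were Qdpr and Pcbd1, which both recycle the cofactor. Qdpr measured 123 ± 24.5 FPKM over the controls and 88.6 ± 23.5 over the TPN rats (SD, n = 3), and Pcbd1 measured 212 ± 33.0 FPKM over the controls and 190 ± 25.0 over the TPN rats (SD, n = 3).

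Of 6 tested genes of a list of other tyrosine steps and of relatives of the enzymes, 5 were negative. Only 1, the relative Fahd2a, had an unadjusted p under 0.05. Gstz1, the isomerase between Hgd and Fah, measured 199, 126.4 and 188 FPKM in the controls and 66.7, 126.2 and 157 in the TPN rats (log2 fold change -0.61, limma adjusted p = 0.551). As for Hgd and Fah, TPN 1 was the lowest TPN rat and TPN 3 the highest. Fahd2a, which shares a domain with Fah, measured 17.3 ± 4.87 FPKM over the controls and 9.47 ± 3.00 over the TPN rats (SD, n = 3, limma adjusted p = 0.361), and Ddt, a tautomerase, 283 ± 61.9 and 226 ± 83.5.

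Among 7 tested genes of carriers of aromatic or other neutral amino acids and their subunits, 4 were positive and 3 negative. At an unadjusted p under 0.05, 2 were higher and 1 lower. Slc16a10, a carrier of aromatic amino acids, measured 8.71, 7.64 and 9.74 FPKM in the controls and 4.79, 3.27 and 5.06 in the TPN rats, lower without overlap (log2 fold change -0.86, SE 0.18, limma adjusted p = 0.157). Slc3a2, the shared heavy chain of several amino acid exchangers, measured 29.1, 31.8 and 24.5 FPKM in the controls and 41.3, 96.6 and 55.9 in the TPN rats, higher without overlap (log2 fold change 1.07, SE 0.30, limma adjusted p = 0.261). Its partner Slc7a8 measured 0.798 ± 0.393 FPKM over the controls and 1.61 ± 0.527 over the TPN rats (SD, n = 3), and the abundant neutral amino acid transporter Slc38a4 170 ± 21.7 and 168 ± 24.8. With all rats kept but weighted (sample weights), Ddc, Dhtkd1, Gchfr, Slc16a10 and Slc3a2 passed, with limma adjusted p from 0.0214 to 0.0391.

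**Figure D4:**
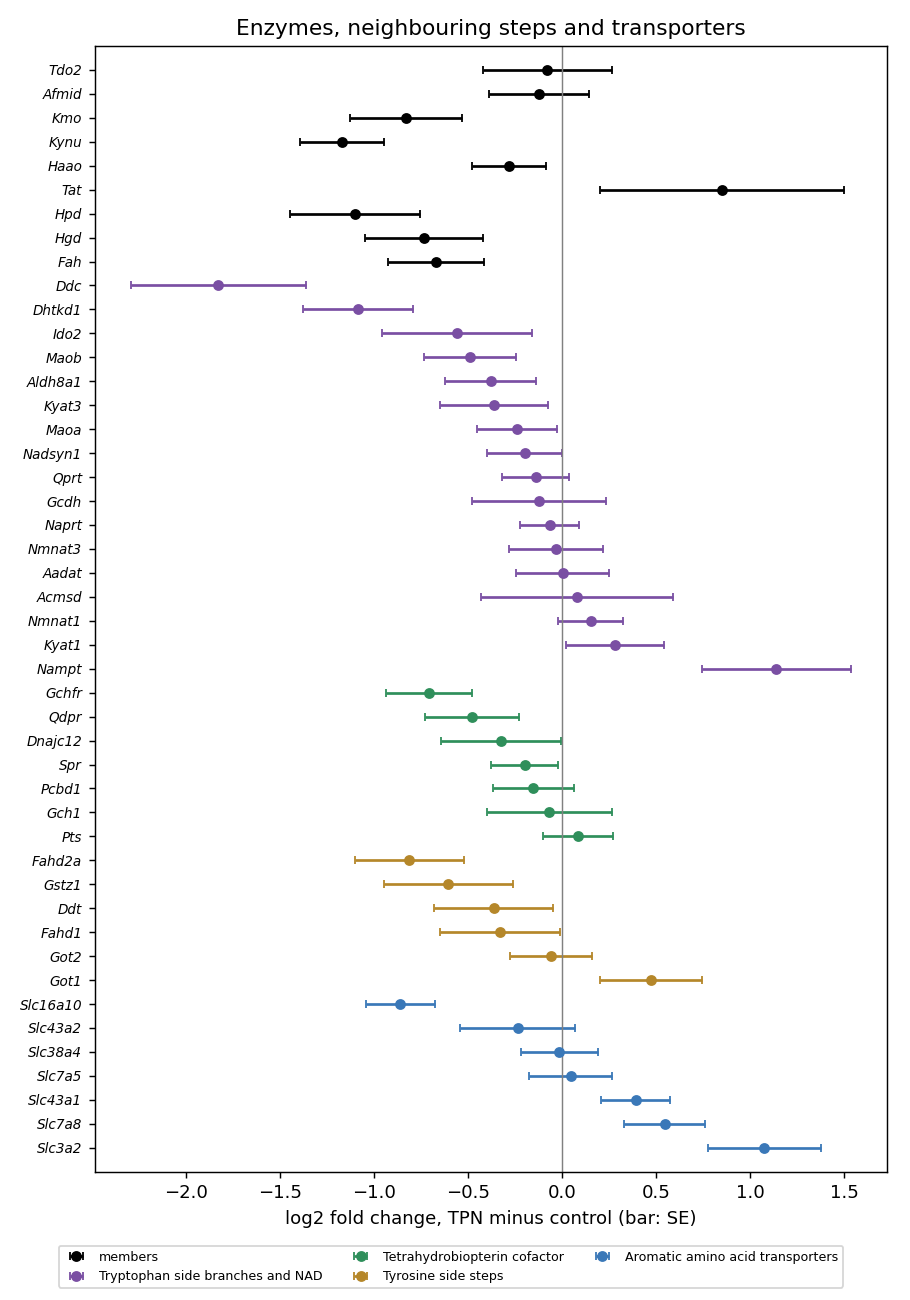
Log2 fold change, TPN minus control, on the log2(FPKM + 1) scale with its SE for the 9 enzymes (black) and the tested genes of 4 neighbouring lists (colours). Tat lies to the right of 0, while Kynu (-1.17) and Hpd (-1.10) lie furthest left among the 9.

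All 10 measured genes of a glucocorticoid response list were positive (median 0.58), where 49.1% of all features were negative. Of the 10, 2 had an unadjusted p under 0.05, beside 4.44% of all features higher at that p. The changes of Mt1 (0.46, SE 0.97) and Dusp1 (0.57, SE 0.64) were smaller than their SE. That genes of such a list lay higher was known when it was chosen, so these counts are no independent support. Hsd11b1, which regenerates active glucocorticoid, measured 222, 289 and 295 FPKM in the controls and 317, 427 and 462 in the TPN rats, higher without overlap (limma adjusted p = 0.417). Pck1, the rate-controlling enzyme of gluconeogenesis, measured 384 ± 180 FPKM over the controls and 672 ± 112 over the TPN rats (SD, n = 3, limma adjusted p = 0.434), and the metallothionein Mt2A 567 ± 784 and 640 ± 320. Of 12 transcription factors of hepatocytes 6 were positive and 6 negative. Foxa3 measured 15.9 ± 3.58 FPKM over the controls and 28.1 ± 10.9 over the TPN rats (limma adjusted p = 0.396), Ppargc1a, a coactivator of fasting, 1.74 ± 0.340 and 3.02 ± 1.04 (limma adjusted p = 0.399). Hnf4a measured 97.6 ± 12.7 and 106 ± 32.0, and Cebpa 65.4 ± 25.7 and 60.8 ± 15.6.

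Markers of the tissue were present. The 7 hepatocyte genes summed to between 67289 and 82228 FPKM in control and between 54313 and 74000 in TPN, and the 3 kidney tubule genes, checked because kidney shares several of these enzymes, to at most 0.958. Alb made up the largest part of the hepatocyte sum, and 4 of the 7 were positive and 3 negative. Ttr was lower without overlap, at 6789 ± 2267 FPKM over the controls and 2507 ± 842 over the TPN rats (SD, n = 3). Its log2 fold change was -1.44 (limma adjusted p = 0.242). Fgb measured 4713 ± 3010 FPKM over the controls and 9504 ± 4592 over the TPN rats (limma adjusted p = 0.473). The 6 Kupffer cell genes summed to between 280 and 423 FPKM in control and 356 and 615 in TPN, and the 3 erythroid genes to between 1672 and 1865 and between 187 and 455, with all 3 past limma's threshold. The sums of 4 cholangiocyte genes (9.44 to 12.9 and 5.40 to 7.03) and of 5 stellate cell genes (24.1 to 41.5 and 16.7 to 25.0) were low beside those of hepatocytes. Acute-phase genes summed to between 12892 and 36665 in control and 24695 and 75279 in TPN. The part of these shifts in the values of the 9 enzymes was not tested.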

How the data were processed

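RNA-seq of liver from 3 control and 3 TPN rats was analysed from 1 table of FPKM that the authors deposited. Per the labels' protocols, RNA was extracted with TRIzol. Per the submitters' processing notes, Bowtie 0.12.2, Cufflinks and the build Rnor_6.0 were used. What each did, strandedness and the treatment of shared reads are not stated in the labels or the file. Whole reads could not be recovered from low values (at most 0.905% of ratios of values under 0.3 FPKM in 1 bin of 0.01 on the log2 scale), so depth is unknown. FPKM summed to between 509630 and 544670 per sample.

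Features whose mean reached 1 FPKM were tested as log2(FPKM + 1) in limma 3.58.1 (R 4.3.3 and statmod 1.5.0) using trend and robust moderation, no covariate, 2-sided p-values and adjustment by Benjamini-Hochberg over all 11362 features. On data simulated for TPN against control over these 11362 features, this test called 34 of 100 genes with a log2 change of 1 and 91 of 100 with a log2 change of 2, and 6 of 131 calls were unchanged genes. The simulated noise was independent between genes, and the changed genes were drawn from the more abundant. Real rats differed together across many genes, so these rates need not hold for the real data. An exact rank test on 3 against 3 cannot give a p under 0.1. The labels name separate rats by number only, so p-values measure the spread between these samples.

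The members and lists were chosen with earlier results of these data known. Named genes were the 9 members and, of the other lists, those past the threshold, those with an unadjusted p under 0.05 and the 2 most abundant. Of the 66 other pathway genes 64 had a row. A further listed gene is not reported here. Motifs were searched with Python 3.11.15, and figures drawn with matplotlib 3.10.9. Alternatives were 17 other fits: pseudocounts of 0.1 and 0.01, a mean of at least 5 FPKM or no filter, 3 scalings, 2 other settings of the model, the replicate block, each rat left out, and control 2 and TPN 1 left out together.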

Additional observations from a re-analysis of the deposited data

How the results depend on the processing

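The depth of these libraries is unknown, so counting error is not separated from the spread between rats. None of the 9 genes passed limma's adjusted threshold in any of the 17 other fits except with sample weights, where 2 did (Hpd and Kynu). Other pathway genes passed in 2 fits, 5 with sample weights and 1 without control 2 and TPN 1 together. The 28 features that passed in the whole table became 18 and 5 with pseudocounts of 0.1 and 0.01, 0 without a filter (1898 at an unadjusted p under 0.05), 6 with a mean of at least 5 FPKM, 0 after median-ratio scaling (1558 unadjusted) or quantile normalisation (1591 unadjusted), 8 without trend or robust settings, 299 with sample weights, 58 with the replicate block and 121 without control 2 and TPN 1 together. Leaving out each rat gave 0 to 46 features. At an unadjusted p under 0.05 it gave 2 to 7 of the 9 genes, counted in either direction.

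The sign of Tdo2 turned with quantile normalisation (0.16), without control 3 (0.015), without TPN 1 (0.26) and without control 2 and TPN 1 together (0.32), and that of Afmid without TPN 1 (0.045), without TPN 2 (0.0039) and without control 2 and TPN 1 together (0.12). Leaving out 1 rat at a time, Tdo2 ran from -0.38 to 0.26 and Afmid from -0.42 to 0.045. The other 7 genes kept their sign in all 17 fits, and the median over the 9 ran from -0.87 without TPN 3 to -0.46 without TPN 1. The labels do not say whether the replicate numbers pair the rats. Deviations of same-numbered rats correlated at -0.214, -0.143 and 0.321, and those of other pairs at -0.352 to 0.418. With 3 rats per group these values cannot decide whether rats were paired. With the block 5 of the 9 genes had an unadjusted p under 0.05, Tat in place of Hgd. Tat then had a limma unadjusted p = 0.015 and adjusted p = 0.32. The cause of these differences was not tested.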

Other observations

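Likeness was measured as the mean absolute difference between the profiles of 2 genes over the 6 rats, each as log2(FPKM + 1) centred on its own mean, among 6370 other named genes with a mean of at least 5 FPKM. Genes this close are found by search among many over only 6 rats, and the values are a description. The nearest profiles to Kynu were those of Hmgb2 (0.129), Eln (0.15) and Gstt2 (0.164), and no other of the 9 enzymes came closer to it than Fah (0.367). The nearest to Hpd were Enpp3 (0.0924), Prodh2 (0.133), a dehydrogenase of hydroxyproline breakdown, and Ass1 (0.137), of the urea cycle. For Kmo they were Pgrmc1 (0.0462), Dmgdh (0.0731), of choline breakdown, and C8g (0.0751), for Hgd Nudt14 (0.0648), Tmem86b (0.0688) and Hoga1 (0.0743), and for Fah Tmlhe (0.0338), of carnitine synthesis, Pign (0.0415) and Btbd2 (0.05). Hgd and Fah were each other's nearest among the 9 (0.1).

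The likeness measure is not scaled to a gene's own spread over the rats. Centred values ran from -1.40 to 1.43 for Tat and from -0.38 to 0.18 for Haao. A larger difference thus need not mean a less similar pattern. The nearest genes of Tat were Mcrip2 (0.321), Ifrd1 (0.322) and Ust5r (0.33). Those of Tdo2 were LOC100911516 (0.0933), Klhl25 (0.0954) and Tob2 (0.101), those of Afmid Mplkip (0.0473), Nploc4 (0.0666) and Psmc5 (0.067), and those of Haao Mindy1 (0.0229), Myo1e (0.0281) and Exosc9 (0.0316). Per1, a clock gene that glucocorticoids also induce, was singled out after its values were seen. It measured 0.841, 2.98 and 2.02 FPKM in control 1, 2 and 3 and 0.72, 5.69 and 9.73 in TPN 1, 2 and 3. Like Tat, it was lowest in control 1 among the controls and in TPN 1 among the TPN rats, and highest of all in TPN 3. Of the same glucocorticoid list, Hsd11b1 and Dusp1 also had this order, and the others did not. TPN 3 was the lowest TPN rat for Sgk1, Pck1, Zbtb16, Mt1 and Mt2A, and TPN 2 the highest for Fkbp5 and Tsc22d3. A link of Per1 to Tat was not tested. The labels give no time of day for the collection of the livers.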
